A study of Mus musculus with 2 samples.

Results

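Gene expression in the hypothalamus was compared between ZT22 and ZT10 in control mice of a study of bezafibrate, a fibrate drug that activates the nuclear receptor PPARα. Zeitgeber time (ZT) counts hours from lights-on, so ZT10 usually falls late in the light phase and ZT22 late in the dark phase; the lighting schedule is not given in the sources used here. Each time had 1 pool of total RNA from 4 control mice, hybridised to 1 one-colour whole-genome oligonucleotide array. A gene was described when its spot was marked well above background on both control arrays and its signal reached 100 intensity units on at least 1 of them. This rule kept 13316 of 21501 genes with a probe (61.9%). Of the others, 3100 were above background on both arrays but under the minimum, 1018 were above background on 1 array and 4067 on neither. Mice were 8 weeks old at the start of the study. The labels give the treated mice 2 weeks on ordinary feed, then 2 weeks with 0.5% bezafibrate added to it and 5 further weeks without the drug, but do not say at which stage brains were taken or how the controls were handled apart from this. The labels used here name no strain, sex or genotype. A pair of bezafibrate pools, also of 4 mice each at ZT10 and ZT22, was treated the same way and is set beside the control pair, with which it shares no array.

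In mammals the daily clock runs on a feedback loop. The activators CLOCK and BMAL1 (gene Arntl) bind E-box sequences and switch on the PER, CRY, REV-ERB and DEC repressors, which then shut the activators down. The suprachiasmatic nucleus of the hypothalamus is the master pacemaker, set by light, and body temperature, feeding, corticosterone and sleep follow it through hypothalamic outputs. Mice are active and warm at night, and their corticosterone peaks around the start of the dark phase.

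The control arrays differed little in general. Well above background were 74.6% of 43379 features at ZT10 and 70.4% at ZT22, no spot was saturated, and the 75th percentile of the signal, on which the arrays were centred, was 1010 intensity units on both. On the bezafibrate arrays it was 1050 units at ZT10 and 893 at ZT22. Printed signals are not centred, so equal signals in the bezafibrate pair mean a centred ratio above 0. The median log2 ratio of ZT22 over ZT10 was 0.04, the 5th and 95th percentiles were -0.25 and 0.31, and 97.8% of all ratios were smaller than 1.5-fold either way. More genes were higher (59.4%) than lower (39.0%) at ZT22. Repeated spots of a probe had a median SD of 0.07 (log2 signal) on either array, and different probes of a gene one of 0.09 (log2 ratio) over 4736 genes. Errors printed with a ratio are scanner errors, combined from the extraction software's error of each spot, with a median of 0.20. They do not cover differences between mice or pools. Some genes below are described as brighter in both pools of 1 time than in both of the other. Those genes already had a control ratio past 1.5-fold, and the share of all genes with that order was not counted. The bezafibrate pools are not replicates of the control pools. With 1 pool a time no p-value exists, and precision is limited by having 1 array per group. In pooled tissue, fewer cells of a type and less RNA per cell cannot be told apart.

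At ZT22, 65 genes were at least 2-fold higher (0.488% of 13316) and 46 at least 2-fold lower (0.345%). At 1.5-fold the numbers were 162 higher (1.22%) and 134 lower (1.01%). When both arrays had to reach 100 units, 11 genes were 2-fold higher and 13 lower, and with normexp correction, another way to subtract background, the numbers were 41 and 20. Most of the 2-fold genes were dim. The median signal of those higher at ZT22 was 208 units on the brighter array and 37.5 on the dimmer, and that of those lower was 208.5 and 63.7. Only Amz1 and Cldn5 among the higher genes, and Chil3, Dbp, Psmc3ip and Sgk1 among the lower, reached 1000 units on either array. The spread of ratios also narrowed with brightness, from a robust SD of 0.23 at 100 to 200 units to 0.09 above 5000 units. Just inside the minimum, 164 genes at 100 to 110 units had ratios from -2.25 to 2.71 (median 0.04), and just outside it 229 genes at 90 to 100 units ranged from -1.70 to 2.45 (median 0.01).

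**Figure D1:**
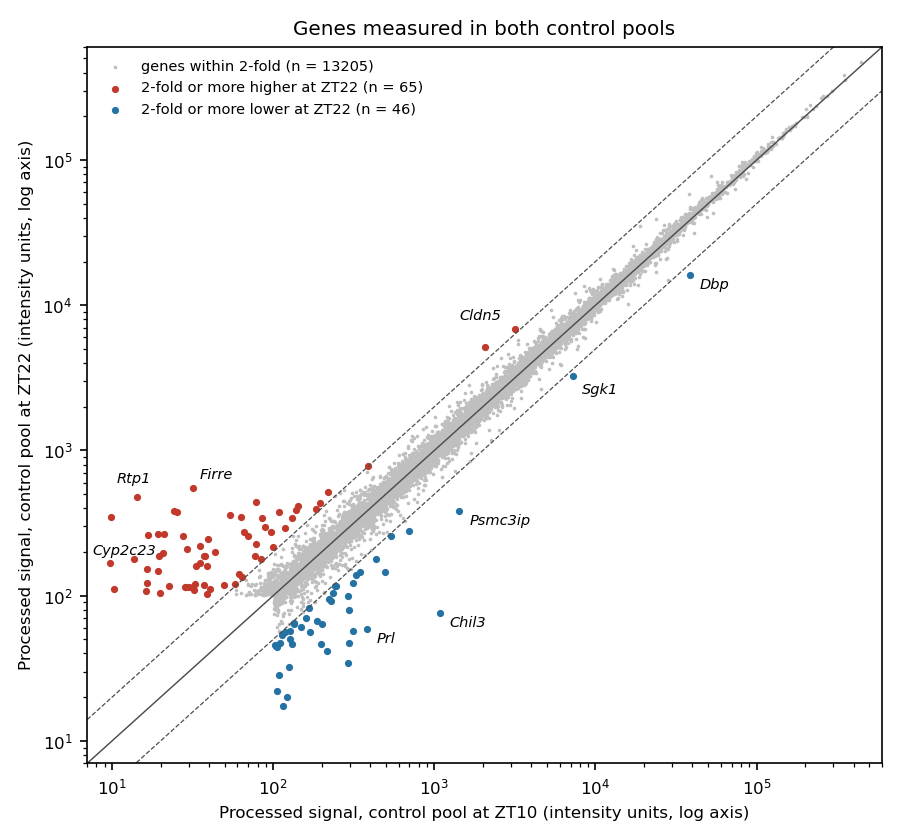
Processed signal of each of 13316 genes in the control pool at ZT10 (x axis) and ZT22 (y axis), both in intensity units on log axes, with the line of equality and dashed lines at 2-fold. The 65 genes in red and 46 in blue lie mostly under 1000 units, and the coloured genes that reach 1000 units are Dbp, Sgk1, Chil3, Psmc3ip, Cldn5 and the unlabelled Amz1.

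The clock repressors were lower at ZT22 than at ZT10, all 10 of 10, with a median log2 ratio of -0.42 against 0.04 over all genes. Of them 3 passed 1.5-fold and 0 passed 2-fold. Ciart, a repressor that binds CLOCK and BMAL1, went from 406 units at ZT10 to 205 at ZT22 in the control pools, a ratio of -0.99 ± 0.21. In the bezafibrate pools it stood at 354 and 212 units, so both ZT10 pools were brighter than both ZT22 pools. Per3, a period gene, had 191 and 123 units in the control pair (-0.63 ± 0.21) and 192 and 109 in the bezafibrate pair. With normexp background correction, an alternative way to subtract background that pulls dim spots together, the control ratio of Per3 was -0.49. Nr1d1, which encodes the REV-ERBα repressor of Arntl, had 636 and 341 units, a ratio of -0.90 ± 0.20. Its call rests on the probe: another probe of Nr1d1 gave 0.60, and the mean over its probes was -0.15. The remaining repressors were within 1.5-fold, from Per1 (3000 and 2190 units) and Per2 (568 and 417 units), both at -0.45, through Bhlhe41 (-0.40), Nr1d2 (-0.24), Cry2 (-0.21) and Bhlhe40 (-0.13) to Cry1 (-0.02).

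The activators leaned the other way, though none passed 1.5-fold. Of 5 measured members, 4 were higher at ZT22 (median 0.26). Arntl had 966 units at ZT10 and 1360 at ZT22 (0.49 ± 0.20), and its partner Clock had 1460 and 1780 (0.29 ± 0.20; another probe 0.18). The nuclear receptors of the ROR family, which activate Arntl, included Rora at -0.37 and Rorb at 0.10. The CLOCK paralogue Npas2 was under the minimum, at 38.5 and 34.4 units.

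Among the direct outputs of the loop, Dbp, a PAR bZIP transcription factor driven by E-boxes, had the brightest signal of all genes 2-fold apart. It gave 38600 units at ZT10 and 16100 at ZT22 in the control pools, 2.40-fold lower (-1.26 ± 0.20), and 33100 and 19500 in the bezafibrate pools. Its relatives Tef (-0.17) and Hlf (-0.15) were within their scanner errors of 0. Nfil3, the repressor that competes with them for the same sites, was higher, with 1020 and 1480 units (0.54 ± 0.20; another probe 0.38). In the bezafibrate pair Nfil3 stood at 0.30. Usp2, a deubiquitinase transcribed rhythmically in most mouse organs, went from 1120 to 660 units (-0.76 ± 0.20), and another probe gave -0.69. It was the single member past 1.5-fold among 7 measured genes that are rhythmic in most organs (median -0.19) and also among 9 clock kinases and ubiquitin ligases (median 0.06). The other ligases and kinases included Csnk1d (0.14) and Csnk1e (0.11), both close to 0.

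**Figure D2:**
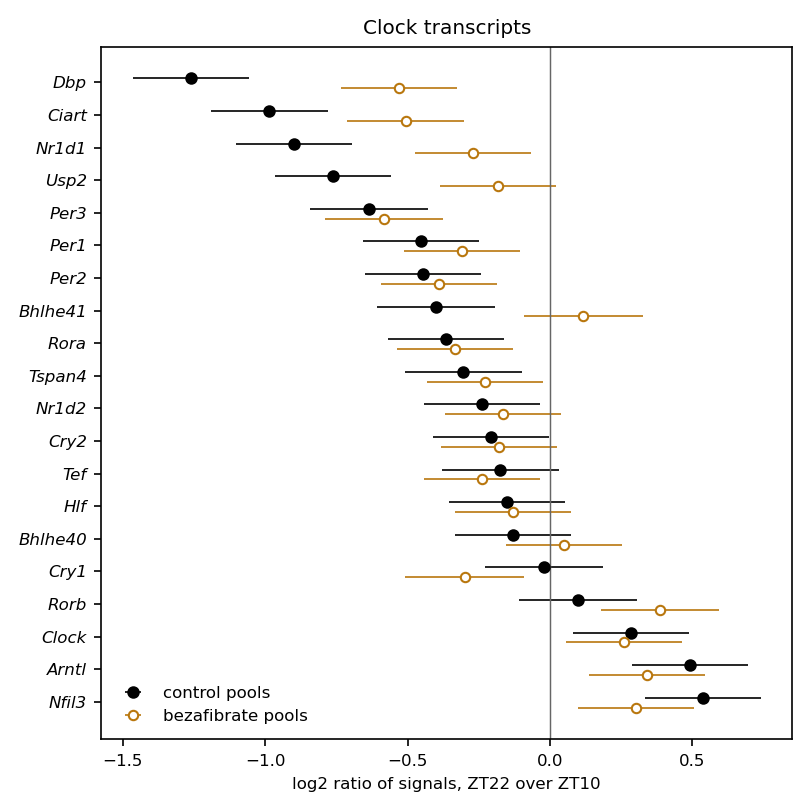
Log2 ratio of ZT22 over ZT10 for 20 clock genes and rhythmic outputs, filled circles for the control pools and open circles for the bezafibrate pools, with bars of 1 scanner error that do not cover differences between mice. All 10 repressors and Dbp, Usp2, Tspan4, Tef, Hlf and Rora lie below 0 in the control pools, and Arntl, Clock and Nfil3 lie above it.

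The 250 bases before the transcription start were read for the measured clock repressors and PAR bZIP genes, from the RefSeq promoter table of build GRCm38.p6, to show where the E-box letters CACGTG stand. The letters read the same on both strands. The table held 13 promoters of 11 of these 13 genes, and 6 promoters of 5 genes (Ciart, Bhlhe41, Cry1, Per1 and Tef) contained the E-box, against 6.02% of all 32851 promoters of that length. Ciart, with the lowest ratio of the repressors, had 3 matches, the first 116 bases before its start, and Per1 had 1, at 166 bases before the start in 1 of its 2 promoters. A match is a description of letters, and no match says nothing about binding. The Per1 promoter lies at chr11:69098699-69098948 on the + strand and the Ciart promoter at chr3:95882229-95882478 on the - strand, with E-boxes in capitals.
Per1: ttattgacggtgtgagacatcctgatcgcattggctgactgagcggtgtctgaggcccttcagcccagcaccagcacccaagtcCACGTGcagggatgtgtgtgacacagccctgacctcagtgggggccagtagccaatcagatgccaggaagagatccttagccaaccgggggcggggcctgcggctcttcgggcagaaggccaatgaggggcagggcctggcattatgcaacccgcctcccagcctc
Ciart: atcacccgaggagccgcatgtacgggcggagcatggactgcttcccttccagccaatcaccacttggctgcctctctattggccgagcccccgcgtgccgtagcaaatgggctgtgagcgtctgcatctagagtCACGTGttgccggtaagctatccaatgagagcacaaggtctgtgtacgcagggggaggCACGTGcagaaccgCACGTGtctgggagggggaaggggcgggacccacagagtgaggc
Among the activators, ROR genes and Nfil3, the letters AGGTCA, the core to which ROR and REV-ERB receptors bind, were found on either strand in 2 of 9 promoters (Clock and Nfil3), beside 14.0% of all promoters.

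Genes listed for the suprachiasmatic nucleus were mostly higher at ZT22, in pools of the hypothalamus as a whole. Of 15 measured peptides, receptors and signalling genes, 13 were higher, beside 59.4% of all genes. Adcyap1 was lower and the receptor Adcyap1r1 had the same signal. The median was 0.21, close to the scanner error of 0.20, and 1 gene passed 1.5-fold. That gene, Syt10, a synaptotagmin enriched in the nucleus, gave 1440 units at ZT10 and 2160 at ZT22 (0.58 ± 0.20), and 2100 and 2190 in the bezafibrate pair (a centred ratio of 0.29). Before centring its lowest value was that of the control pool at ZT10, and the other 3 pools were close together. The ratio lay just on the threshold, and was 0.54 with normexp correction and 0.55 with quantile normalization. Prokr2, the receptor of the clock output peptide prokineticin, stood at 0.51 ± 0.21 with 97.4 and 139 units. Vasopressin (Avp, 60700 and 70400 units, 0.21) and vasoactive intestinal peptide (Vip, 297 and 346 units, 0.22) had ratios near their scanner error. Most Avp in a whole hypothalamus comes from the supraoptic and paraventricular nuclei.

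Heat shock chaperones, which refold proteins and whose transcription follows body temperature, were higher at ZT22 in 26 of 30 measured genes (median 0.18). A single member passed 1.5-fold. Hspa1a, the inducible HSP70, had 2320 units at ZT10 and 3710 at ZT22 in the control pools (0.68 ± 0.20), and 2500 and 3100 in the bezafibrate pools. Both ZT22 pools were brighter than both ZT10 pools, and the other probes of Hspa1a gave 0.49 to 0.84. Next came the HSP90 cochaperone Chordc1 (1980 and 2830 units, 0.52), the small heat shock proteins Cryab (0.45) and Hspb1 (0.42), the mitochondrial Hspe1 (0.35) and the HSP110 family members Hspa4l (0.34) and Hsph1 (38700 and 47100 units, 0.28). The constitutive Hspa8 was at 0.04. Lower were Hspb6 (-0.36), Dnajb5, Hspb8 and Hsp90ab1. Cirbp, the RNA-binding protein that is induced by mild cold, went the other way, from 23900 to 16900 units (-0.50 ± 0.20), and from 26200 to 16700 in the bezafibrate pair. The other measured member of the cold-inducible list, Srsf5, a splicing factor, was at 0.11 (3160 and 3410 units). Rbm3 was under the minimum, at 13.5 and 6.98 units. Body temperature was not among the data used here.

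In the list of endoplasmic reticulum chaperones and unfolded protein response genes, 17 of 23 measured genes were higher, beside 59.4% of all genes. The median was 0.15, or 0.09 with quantile normalization, and none passed 1.5-fold. Sdf2l1, a partner of the chaperone BiP, had 1410 and 2050 units (0.54 ± 0.20), the secreted Creld2 7870 and 10500 (0.42), and Hspa5, which encodes BiP, 25000 and 31300 (0.32 ± 0.20). Manf (0.30), Sel1l (0.29), Dnajc3 (0.25) and Pdia6 (0.22) followed. The transcription factors and sensors of the unfolded protein response did not share this lean: Atf4 was at -0.14, Ddit3 at -0.04, Atf6 at -0.04, Eif2ak3 at -0.03 and Xbp1 at 0.04. In the 250 bases before the start, the endoplasmic reticulum stress element (CCAAT, then 9 bases of any kind, then CCACG, on either strand) stood in 8 of 20 promoters of the list, those of Hspa5, Calr, Hsp90b1, Canx, Pdia6, Dnajc3, Creld2 and Syvn1, and in 0.113% of all promoters. The promoters of Hspa5 (chr2:34771840-34772089, + strand) and Creld2 (chr15:88819396-88819645, + strand) are shown because both genes are among the higher members, with the element in capitals. In Creld2 it reads on the other strand.
Hspa5: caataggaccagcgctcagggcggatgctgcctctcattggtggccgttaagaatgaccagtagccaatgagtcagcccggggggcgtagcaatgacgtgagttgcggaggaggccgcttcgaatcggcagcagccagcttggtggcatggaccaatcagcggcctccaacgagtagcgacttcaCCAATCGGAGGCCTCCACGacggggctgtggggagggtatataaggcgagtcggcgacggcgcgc
Creld2: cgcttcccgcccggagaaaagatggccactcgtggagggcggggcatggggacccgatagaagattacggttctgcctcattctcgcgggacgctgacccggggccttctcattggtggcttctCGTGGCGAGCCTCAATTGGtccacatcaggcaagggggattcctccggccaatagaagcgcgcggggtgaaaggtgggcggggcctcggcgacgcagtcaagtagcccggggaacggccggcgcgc

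Genes that respond to glucocorticoids were lower at ZT22 in 13 of 18 measured members (median -0.33), and 3 passed 1.5-fold. Sgk1, a kinase that the mineralocorticoid and glucocorticoid receptors induce, gave 7210 units at ZT10 and 3250 at ZT22 in the control pools, 2.22-fold lower (-1.15 ± 0.20). The bezafibrate pools gave 8020 and 4570 units, so both ZT10 pools were brighter than both ZT22 pools. Plin4, a lipid droplet coat protein, had 1660 and 849 units (-0.97 ± 0.20), and 1820 and 985 in the bezafibrate pools. Arrdc2, an arrestin-like protein, had 184 and 117 units (-0.65 ± 0.21; -0.49 with normexp correction) but 153 and 122 in the bezafibrate pools. The clock-linked Tsc22d3 (GILZ) was at -0.56, the phagocytosis receptor Mertk at -0.56, the transcription factor Klf9 at -0.51 and the NF-κB inhibitor Nfkbia at -0.43. Fkbp5, a cochaperone of the glucocorticoid receptor, had 493 and 355 units (-0.47 ± 0.20), while its other probes ranged from -1.40 to -0.33 and the mean over probes was -0.73. The metallothioneins Mt1 (-0.27) and Mt2 (-0.37) were within 1.5-fold in the control pair, and stood at 0.20 and 0.58 in the bezafibrate pair. The highest members were Cdkn1a (0.31) and the astrocyte connexin Gjb6 (0.31), and the receptor Nr3c1 stood at -0.10.

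The glucocorticoid response element, written GNACA, then 3 bases of any kind, then TGTNC, on either strand, was found in 2 of 28 promoters of this list (Mt1 and Sgk1), and in 0.387% of all promoters. Sgk1, the member with the lowest ratio, carries it 188 bases before 1 of its 6 RefSeq starts, at chr10:21993640-21993889 on the + strand, with the element in capitals.
Sgk1: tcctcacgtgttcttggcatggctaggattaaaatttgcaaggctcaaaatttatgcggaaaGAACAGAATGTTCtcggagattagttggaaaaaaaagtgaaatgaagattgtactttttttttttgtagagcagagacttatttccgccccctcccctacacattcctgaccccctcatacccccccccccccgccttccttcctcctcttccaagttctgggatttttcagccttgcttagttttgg

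The immediate early genes of neuronal activity were close to level, with more of them lower than higher. Of 28 measured members, 9 were higher and 19 lower (median -0.04), and none passed 1.5-fold. Of all genes, 39.0% were lower. In the bezafibrate pair 21 of the 28 were higher and 7 lower (median 0.14). Fos had 517 and 504 units (-0.04 ± 0.20), Arc was at 0.10, Egr1 at -0.15 and Jun at 0.37. The salt-inducible kinase Sik1, a light-responsive gene of the clock, was at -0.38.

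Transcripts of the feeding peptides were close to level, with 6 of 15 higher and 9 lower (median -0.03). The appetite-promoting Npy (1510 and 1250 units, -0.27 ± 0.20) and Agrp (639 and 477 units, -0.42 ± 0.20) of the arcuate nucleus were lower at ZT22, both within 1.5-fold. In the bezafibrate pair they stood at 0.27 and 0.28. Pomc (15700 and 15900 units), which gives rise to satiety-promoting α-MSH, was at 0.02, the orexin precursor Hcrt (73600 and 63100 units) at -0.22 and Pmch (58500 and 56000 units), which encodes melanin-concentrating hormone, at -0.06. The single member past the threshold was the RF-amide peptide gene Qrfp, at 105 and 22.1 units (-2.25 ± 0.28), which was not well above background in either bezafibrate pool. With normexp correction Qrfp stood at -0.96. Among 17 other neuroendocrine peptides the median was 0.01 and none passed 1.5-fold. Kiss1 (0.36) and oxytocin (Oxt, 0.33) were the highest and Adcyap1 (-0.23) the lowest.

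Of 12 receptors of feeding and energy signals, 6 were higher and 6 lower (median 0.03). Ghsr, the ghrelin receptor, was the single one past a threshold, with 37.5 units at ZT10 and 189 at ZT22 in the control pools (2.33 ± 0.22, 5.04-fold) and 37.4 and 70.2 in the bezafibrate pools. The ZT10 pools were alike and both ZT22 pools brighter, the control one most. With normexp correction the control ratio was 1.41. Mc3r and Mc4r, the melanocortin receptors, were both at -0.01.

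Among genes of histamine, prostaglandin D2 and adenosine signalling, which act on sleep and waking, 4 were higher and 7 lower (median -0.07). Ptgds, the synthase that makes the sleep-promoting prostaglandin D2 in the leptomeninges and choroid plexus, was higher at ZT22. It gave 37900 and 58000 units in the control pools (0.61 ± 0.20) and 39700 and 52000 in the bezafibrate pools (0.62 ± 0.20). With quantile normalization the control ratio was 0.56. Hdc, the histamine-forming enzyme of the tuberomammillary nucleus, had 3640 and 2860 units (-0.35 ± 0.20). The histamine receptor genes Hrh1 and Hrh3 were at 0.21 and -0.12. Markers of meningeal fibroblasts were higher in the same pool, with a summed signal over the 16 measured markers of 15855 units at ZT10 and 19197 at ZT22, and so were all 8 measured choroid plexus markers, with a summed signal of 8080 and 9404 units. Their part in the Ptgds ratio was not tested.

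Metabolic lists stayed near the median of all genes. The 24 cholesterol synthesis genes had a median of 0.05 with 14 higher and 10 lower. Of 24 PPARα targets, 13 were higher and 11 lower (median 0.02), and 1 passed 1.5-fold: Angptl4, an inhibitor of lipoprotein lipase that is also induced by glucocorticoids and fasting, had 2880 and 4620 units (0.68 ± 0.20). In the bezafibrate pools it had 2950 and 3000 units (a centred ratio of 0.26), and the control pool at ZT22 was the brightest. Pdk4 was at -0.28 and Ppara at -0.14. Genes of GABA and glutamate synthesis and transport had a median of 0.00 over 11 members, and 13 housekeeping genes one of 0.01. Cytosolic ribosomal proteins were higher in 66 of 79 genes by a median of 0.06, and oxidative phosphorylation subunits in 67 of 80 by a median of 0.08, led by the complex I subunit Ndufb2 (26600 and 35600 units, 0.42). None of either list passed 1.5-fold, and both medians exceed that of all genes by less than 0.1. Quantile normalization brought them to 0.00 and 0.03.

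Interferon-induced genes were lower at ZT22 in 18 of 22 measured members (median -0.17). Ifit3, an antiviral tetratricopeptide protein, had 2260 and 1180 units in the control pools (-0.94 ± 0.20) and 1930 and 1140 in the bezafibrate pools, and its other probes gave -0.83 to -0.33. The chemokine Cxcl10 had 108 and 57.4 units (-0.91 ± 0.23; -0.54 with normexp correction), and 209 and 50.7 in the bezafibrate pools. For both genes each ZT10 pool was brighter than each ZT22 pool. Isg15 (-0.53) and Ifit1 (-0.38) followed, while the class I antigen genes H2-D1 (0.41), H2-K1 (0.33) and B2m (0.16) and Stat2 (0.09) were the members that were higher. H2 genes are a family of near-identical copies, so their probes may share signal. The median of the list was 0.01 in the bezafibrate pair, with 11 higher and 11 lower.

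**Figure D3:**
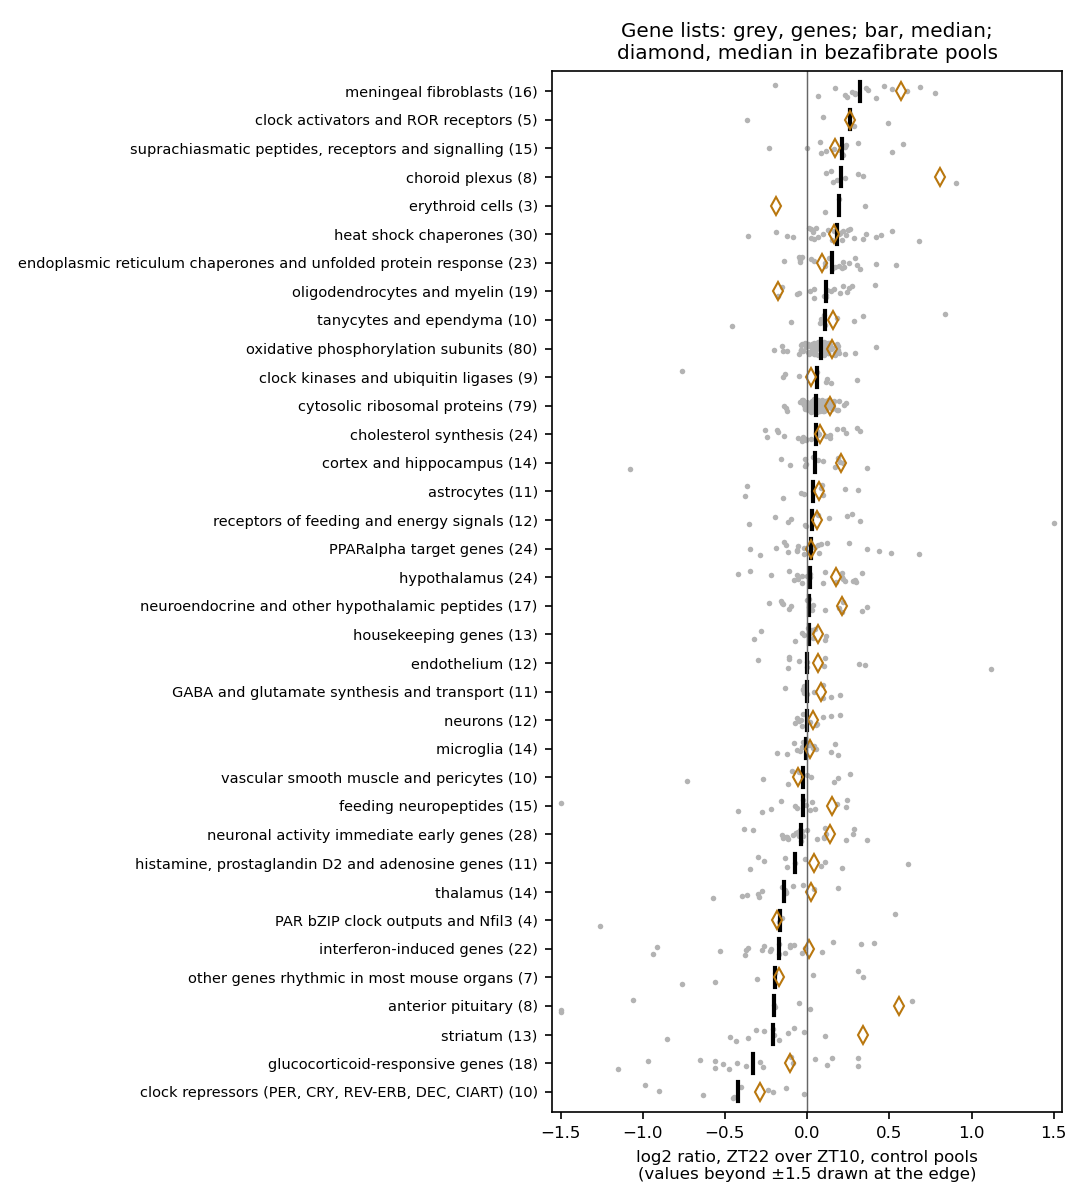
Log2 ratio of ZT22 over ZT10 in the control pools (x axis) for the members of each gene list with at least 3 measured members (number in brackets); grey points are genes, black bars the list medians and open diamonds the medians in the bezafibrate pools. Clock repressors (-0.42) and glucocorticoid-responsive genes (-0.33) have the lowest medians and meningeal fibroblast markers (0.32) the highest. The striatum, pituitary, myelin and thalamus diamonds, among others, fall on the other side of 0 from their bars.

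The tissue label was checked against markers. Of 28 hypothalamic markers, 26 were well above background at each time, Otp and Bsx being the exceptions, and the 24 measured ones had a median of 0.02. Neurons (median 0.00), astrocytes (0.04) and microglia (-0.01) were level, and their markers were all measured. Of 19 myelin and oligodendrocyte markers, 15 were higher at ZT22 (median 0.12, or 0.06 with quantile normalization), and none passed 1.5-fold. Markers of neighbouring tissue differed more. All 13 striatum markers were measured, 12 of them lower at ZT22 (median -0.21), with a summed signal of 23609 units at ZT10 and 21271 at ZT22. Ppp1r1b, the dopamine-regulated phosphatase inhibitor DARPP-32, had 483 and 268 units (-0.85 ± 0.20), and 466 and 462 in the bezafibrate pools (a centred ratio of 0.22). Thalamus markers were lower in 12 of 14 (median -0.14; summed signal 39054 and 36312 units), as in Tnnt1 (863 and 581 units, -0.57). In the bezafibrate pair 9 of the 14 were higher at ZT22 and 5 lower (median 0.02). Cortex and hippocampus markers were mixed, 8 of 14 higher (median 0.05), although Neurod2 had 541 and 256 units (-1.08 ± 0.20; -0.85 with normexp correction). Rora is both a clock gene and a thalamus marker, and whether tissue shares bear on its ratio was not tested. For the clock repressors, Sgk1 and the chaperones, too, the part of unequal tissue in the blocks was not tested.

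Markers of the brain's coverings were higher at ZT22. Of 16 measured meningeal fibroblast markers, 15 were higher (median 0.32) and 3 passed 1.5-fold. Slc6a13, a GABA and taurine transporter, had 730 and 1250 units in the control pools (0.78 ± 0.20; another probe 0.75) and 738 and 1140 in the bezafibrate pools. The cation exporter Slc47a1 had 256 and 412 units (0.69 ± 0.21) and the matrix protein osteoglycin (Ogn) 369 and 561 (0.60 ± 0.20; 0.54 with normexp correction). For each of these 3 genes, named for a control ratio past 1.5-fold, both ZT22 pools were brighter than both ZT10 pools. The share of all genes with that order was not counted. All 8 measured choroid plexus markers were higher (median 0.20), but Ttr, the thyroxine carrier that choroid plexus makes in abundance, had only 58.8 and 110 units (0.90 ± 0.22), against 62.7 and 1320 in the bezafibrate pools. With normexp correction the control Ttr ratio was 0.48. Kcne2 and Aqp1, further plexus markers, were under the minimum in both control pools but at 274 and 134 units in the bezafibrate pool at ZT22.

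Vessel markers were level apart from single genes. Of 12 endothelial markers, 6 were higher and 5 lower (median 0.00). Cldn5, the tight junction protein of the blood-brain barrier, had 3170 and 6870 units in the control pools, 2.17-fold higher at ZT22 (1.12 ± 0.20), and 3820 and 5160 in the bezafibrate pools. It was 1 of 2 genes above 1000 units that were 2-fold higher, and both ZT22 pools were the brighter ones. Kdr (0.35) and Cdh5 (0.32) were next, and Pecam1 (-0.12), Slc2a1 (-0.11) and Abcb1a (-0.30) were lower. In smooth muscle and pericytes the median was -0.03 over 10 markers, and the smooth muscle myosin Myh11 had 296 and 178 units (-0.73 ± 0.21), with 289 and 145 in the bezafibrate pools. Of the tanycyte and ependymal markers 8 of 10 were higher (median 0.11). Dio3, which inactivates thyroid hormone, had 143 and 256 units (0.84 ± 0.21; 0.58 with normexp correction), while Dio2, which activates it, had 1320 and 961 (-0.46). In the bezafibrate pair those were at -0.05 and 0.42.

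Of the pituitary hormone transcripts, 2 were at least 2-fold lower at ZT22. Prolactin (Prl) had 380 units at ZT10 and 59.2 at ZT22 (-2.68 ± 0.22), and growth hormone (Gh) 201 and 63.9 (-1.65 ± 0.21). In the bezafibrate pools Prl had 17.7 and 2.41 units and Gh 15.9 and 9.25, with neither well above background at ZT22. In the control pair the other measured hormone genes were closer to level, with Cga and Lhb at -0.20, Tshb at -0.05 and Pomc at 0.02. Of 8 measured pituitary markers 6 were lower (median -0.20), and the summed signal went from 21459 to 20617 units. The factor Pitx1 was higher (0.64 ± 0.20; 0.52 with normexp correction), and the pituitary regulator Pou1f1 was near 0 signal, at 1.88 and 2.78 units. The part of pituitary tissue in the pools was not tested. Among blood cell markers, 4 of 13 neutrophil markers were well above background at ZT10 and 3 at ZT22, of which S100a9 alone was measured (115 and 210 units, 0.87 ± 0.21; 0.57 with normexp correction), and the 3 erythroid genes on the array were all well above background and higher at ZT22 (median 0.20; summed signal 46548 and 55928 units).

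Of the named genes, the highest ratios belonged to transcripts near background at ZT10. Rtp1, which carries odorant receptors to the cell surface, had 14.3 units at ZT10 and 476 at ZT22, and 12.3 and 10.8 in the bezafibrate pools, not well above background in either. Its ratio was 5.06 ± 0.27, or 2.80 with normexp correction. Pklr, the liver and red cell pyruvate kinase, had 25.3 and 375 units (3.89 ± 0.23), against 22.7 and 22 with bezafibrate. The adrenergic receptor Adra2b had 19.4 and 264 units (3.77 ± 0.24), against 14.6 and 16.6. Pde6h, a cone phosphodiesterase subunit, Prss32, Zfp974, the urokinase Plau, Fam163b, the protease Mbtps2, Umodl1, Olfr447, Olfr1154 and the DNA repair enzyme Mgmt completed the list, with ratios down to 2.74. In all of these the control pool at ZT22 was the brightest of the 4. Cyp2c23, an epoxygenase, had 9.65 and 168 units in the control pools (4.12 ± 0.33) and 9.92 and 247 in the bezafibrate pools, so it was high at ZT22 in both. Firre, an X-linked noncoding RNA, had 31.8 and 552 units (4.12 ± 0.22) but 258 and 24.7 with bezafibrate, where the order was reversed. Normexp correction lowered the ratios of the 15 genes to between 1.23 and 2.80, and each still exceeded 2-fold.

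The lowest ratio was that of Chil3, a chitinase-like protein of macrophages and neutrophils. It had 1080 units at ZT10 and 75.7 at ZT22 in the control pools (-3.83 ± 0.21, 14.3-fold lower) and 696 and 58.3 in the bezafibrate pools (-3.34 ± 0.21). Both ZT10 pools were thus far above both ZT22 pools, while the microglia list was level and most neutrophil markers were not well above background. Psmc3ip, a cofactor of meiotic recombination, had 1430 and 385 units (-1.89 ± 0.20), and another probe gave -1.98. In the bezafibrate pools it had 362 and 694 units, so the control pool at ZT10 stood apart. Skap1, an adaptor of T cells, had 493 and 146 units (-1.76 ± 0.21), and 469 and 266 with bezafibrate. Perm1, a muscle regulator of mitochondrial genes, had 169 and 56.6 units (-1.58 ± 0.21), and 167 and 90.9. The serine protease Prss43 (290 and 34.4 units, -3.08), the transcription factor Creb3l1 (296 and 47.1, -2.65), the plasmin inhibitor Serpinf2 (122 and 20, -2.61), Wdr91, Adamtsl5 and the claudin Cldn3 (294 and 79.3, -1.89) were bright in the control pool at ZT10 alone. Olfr385 and Prss22 (293 and 98.9 units, -1.57) belong to the same group. Prl, Gh and Qrfp complete the 15. After normexp correction these ratios lay between -3.16 and -0.96.

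**Figure D4:**
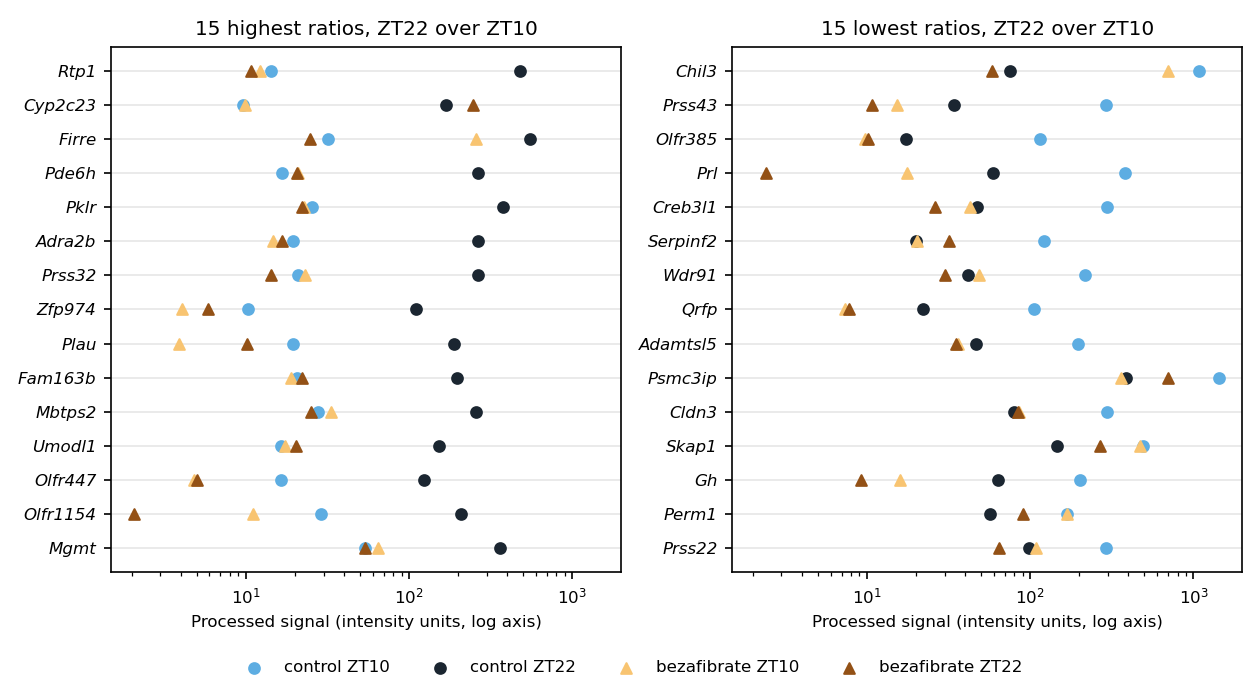
Processed signal (x axis, intensity units, log scale) on the 4 arrays for the 15 named genes with the highest (left) and lowest (right) ratio of ZT22 over ZT10 in the control pools; circles are control pools, triangles bezafibrate pools, and signals are not centred between arrays. On the left the dark circle of the control pool at ZT22 usually stands alone, except for Cyp2c23 and Firre. On the right Chil3, Skap1, Perm1, Wdr91 and Prss22 have both ZT10 pools above both ZT22 pools. For Cldn3 that order holds only before centring, with bezafibrate signals of 86 and 84.4 units and a centred bezafibrate ratio of 0.21.

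The control pair was then set beside the bezafibrate pair. Under the same rule the bezafibrate arrays kept 13203 genes, of which 39 were at least 2-fold higher at ZT22 (0.295%) and 21 lower (0.159%), and 154 (1.17%) and 85 (0.644%) at 1.5-fold. Of the 65 genes 2-fold higher in the control pair, 49 had a signal on the control ZT22 array at least 2-fold above each of the other 3 arrays after centring. Of 64 of them with a bezafibrate ratio, 46 had the same sign, 15 passed 1.5-fold in the same direction and 4 in the opposite one. Of the 46 genes 2-fold lower, 18 stood 2-fold above all others on the control ZT10 array, 34 had the same sign in the bezafibrate pair, 17 passed 1.5-fold in the same direction and 5 in the opposite one. Both same-sign counts are close to the share over all genes above background on the 4 arrays, 69.6% of 13294. A second probe was counted only where it met the same rule. Probes that stayed dim on both arrays were thus left out, which favours agreement in advance. Mbtps2 (3 probes) and Ghsr (2 probes), for example, had no other probe that met the rule. The counted probes passed 1.5-fold in the same direction for 2 of 2 higher genes (Aph1a and H2-Bl) and 3 of 3 lower genes (the clone E330037M01Rik, Pla2g4b and Psmc3ip).

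**Figure D5:**
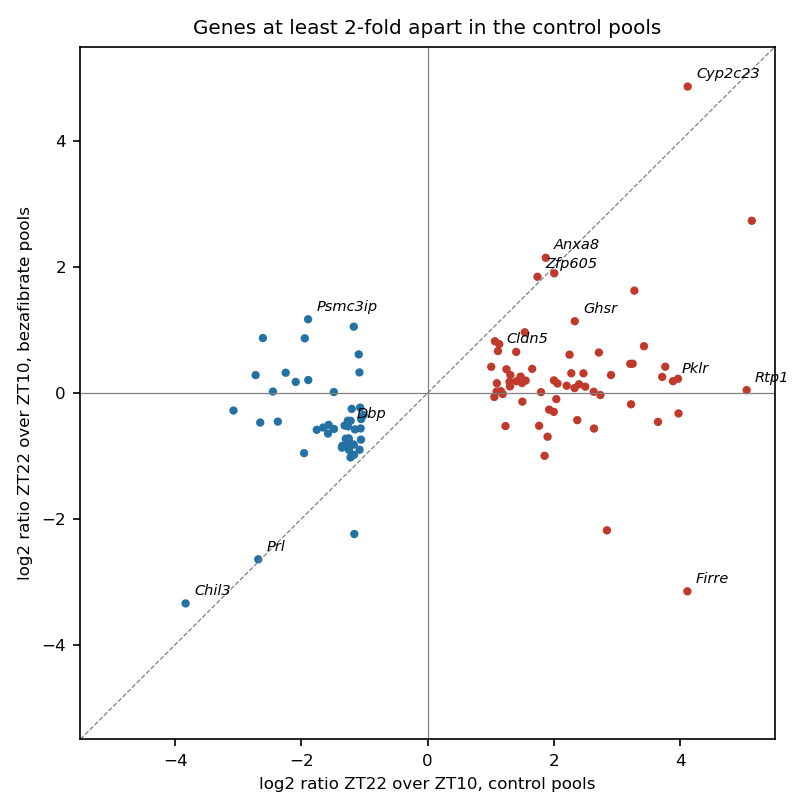
Log2 ratio of ZT22 over ZT10 in the control pools (x axis) and in the bezafibrate pools (y axis) for the genes at least 2-fold apart in the control pools, higher ones in red and lower ones in blue, with the line of equality dashed. Most red points lie near 0 on the y axis, and Cyp2c23 and Chil3 lie near the line, as does Prl, whose bezafibrate signal at ZT22 was not well above background, while Firre and Psmc3ip have opposite signs.

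Over 13294 genes above background on all 4 arrays, 69.6% had the same sign in both pairs, and the ratios correlated at r = 0.34 (Pearson) and rho = 0.47 (Spearman). These describe genes of the same 4 pools, which are not independent replicates. At 1.5-fold, 23 genes were higher at ZT22 in both pairs, 15.3% of 150 in the control and 16.3% of 141 in the bezafibrate pair. Lower in both were 31, 24.2% of 128 and 46.3% of 67. Opposite calls were made for 4 genes higher and 12 lower in the control pair. The genes higher in both included Ghsr, Cldn5, Ptgds, Slc6a13, Ogn, Ttr and S100a9, described above. Others were the annexin Anxa8 (32.7 and 120 units, 1.87 ± 0.23), the zinc finger gene Zfp605 (89.4 and 299 units, 1.74 ± 0.21), the betaine transporter Slc6a12 (99.2 and 218 units, 1.14 ± 0.21) and the membrane protease Mmp14 (3300 and 5800 units, 0.81 ± 0.20). The genes lower in both included Chil3, Perm1, Plin4, Cxcl10 and Myh11, and also the purine enzyme Xdh (227 and 92.5 units, -1.30 ± 0.21), the cadherin Cdh15 (655 and 329 units, -0.99 ± 0.20) and the imprinted noncoding RNA Kcnq1ot1 (328 and 174 units, -0.91 ± 0.21). These further genes, the list members within 1.5-fold other than those fixed by name, and Amz1, Aph1a, H2-Bl and Pla2g4b were chosen after their values were seen.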

How the data were processed

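Per the labels, hypothalamus blocks were kept in RNAlater for 2 hours and 400 ng of pooled total RNA was labelled with Cy3. Per the file headers, the authors extracted the spots with Agilent Feature Extraction 9.5.1.1. The authors deposited processed signals as intensity values with background already subtracted and no normalization between arrays. The 4 arrays lay on 1 slide, so slide was no batch between them. The position on the slide differed for every array and cannot be told apart from the group.

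Each signal was taken to log2 from the deposited intensity and the array's 75th percentile over non-control features was subtracted. Control spots and outlier spots (112 at ZT10 and 142 at ZT22) were left out, and spots of a probe were averaged. Probes were named with RefSeq's gene table (GRCm38.p6) by accession (22951 probes), symbol (5850) or older symbol (3944). The name in the files was kept for 2225, and 6204 had none. A gene was represented by its brightest probe over the 4 arrays. Called means past 2-fold, or 1.5-fold as a second threshold.

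With 1 pool per time there was no test and no p-value. Lists (38) were described by counts and medians. Named were the 15 highest and 15 lowest ratios among genes with a symbol other than a clone, numbered locus or predicted gene, list members past 1.5-fold (up to 8 per list) and fixed clock, chaperone and peptide genes. The members, lists and rules were chosen with earlier results of these data known. Counting was tested on simulated data. Alternatives were median centring, quantile normalization, normexp on the median spot intensity (limma 3.58.1, R 4.3.3, offset 50), 3 signal minimums, the mean over probes and outliers kept. Promoter sequences came from RefSeq. A few genes selected this way are not reported here.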

Additional observations from a re-analysis of the deposited data

Results flagged for a closer look

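Some genes and lists differed between ZT22 and ZT10 in opposite directions in the control and in the bezafibrate pools. With 1 pool per group the difference between the pairs was not tested. Firre had a log2 ratio of 4.12 in the control pair and -3.15 in the bezafibrate pair. Serpinf2 stood at -2.61 and 0.87, and Psmc3ip at -1.89 and 1.17.

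Among the lists, myelin and oligodendrocyte markers had a median of 0.12 in the control pair, with 15 of 19 higher at ZT22, and -0.18 in the bezafibrate pair, with 17 of 19 lower. Anterior pituitary markers had medians of -0.20 over 8 genes and 0.56 over the 6 of them above background on all 4 arrays. The 6 leave out Prl and Gh, which had lower ratios in both pairs (-2.64 and -0.55 with bezafibrate). These 2 medians thus cover different genes. Striatum markers had medians of -0.21 and 0.34, lower in 12 of 13 in the control pair and higher in 12 of 13 in the bezafibrate pair. The 3 erythroid genes had medians of 0.20 and -0.19.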

How the results depend on the processing

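The numbers of genes past a threshold depended on how dim signals were handled. The 65 higher and 46 lower genes at 2-fold, and 162 and 134 at 1.5-fold, became 41 and 20, and 97 and 89, with normexp correction. They became 11 and 13, and 90 and 76, when both arrays had to reach 100 units, and 154 and 109, and 417 and 338, with no minimum. A minimum of 200 units left 34 and 24 at 2-fold and 81 lower at 1.5-fold. Median centring, quantile normalization, the mean over probes and kept outliers left all 4 counts within 1.5 times. Of 288 list medians recomputed, 286 moved by less than 0.1. Averaging probes moved the clock repressors to -0.32 and the clock kinases and ligases from 0.06 to -0.063, past 0. Of the 608 recomputed ratios of named genes, 40 moved by more than their scanner error, 37 under normexp and 3 (Nr1d1, Ifit3, Fkbp5) under the mean over probes, and 3 changed sign (Hspa8 under normexp, Hspa8 and Pomc under quantile normalization, each within 0.1 of 0). For genes near background the size of a fold rests on the background correction. No paired analysis was possible because each time had 1 pool, and leaving out a pool left no comparison.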

Other observations

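Clone-named transcripts were frequent among the genes that were lower at ZT22. RIKEN clone names made up 3.44% of the 13316 measured genes, but 15 of the 46 genes at least 2-fold lower (32.6%) and 10 of the 65 at least 2-fold higher (15.4%). The 3.44% covers genes of every brightness, while most 2-fold genes were dim. The share of clone names among equally dim genes was not counted. Of the 31 genes at least 1.5-fold lower in both pairs, 14 carried such a name (45.2%), against 2 of 23 higher in both (8.70%). The median ratio of all 458 clone-named genes was 0.05 in the control pair and 0.06 in the bezafibrate pair, near that of all genes. Examples of the lower ones are 9530083O12Rik (315 and 123 units in the control pools, 324 and 151 in the bezafibrate pools), 6330415B21Rik (328 and 138, 308 and 159) and 9530091C08Rik (344 and 145, 321 and 161). In each of these the ZT10 pools lay close together and far above both ZT22 pools. This grouping was noticed after the values were seen.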
